A study of Apis mellifera with 6 samples.

Results

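The transcripts described here were abundant in the central brain of newly-eclosed honey bee (*Apis mellifera*) queens and scarce in both drones and workers. They were chosen from 28409 reference transcripts, each quantified as a separate target. A target was taken where both queen libraries held at least 10 TPM (a level scaled to transcript length and to a fixed total per library) and where the lower queen value was at least 5 times the highest value of the 4 drone and worker libraries. The genes *Vg*, *Antp* and *Ubx* and all troponin genes (symbols beginning *Tpn*) were left out. Of 6306 targets with at least 10 TPM in both queen libraries, 49 (0.777%) met the ratio, 7 of these were troponin targets, and the other 42 targets, from 36 genes, are the queen-high set. Since queen values chose the set, its queen levels are given as a description with no test.

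RNA-seq was performed on queen, drone and worker brains, with 2 replicate libraries for each phenotype and a pool of 5 brains behind each library. Drones are the haploid males of the species and both female castes are diploid. All bees came from 1 mother queen and were sampled within an hour of emergence, after queens had been reared from larvae grafted into queen cups and drones and workers in frames of capped brood. No bee carried a transgene or received a treatment. A 2 against 2 comparison of single values cannot reach a two-sided exact permutation p below 0.333, so tests below come from a model fitted across all targets, and their p-values measure the spread between these pools.

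In honey bees, queens and workers arise from the same kind of fertilised egg and diverge through larval feeding. The newly-emerged queen soon flies to mate and then lays eggs, the worker begins with tasks inside the nest, and the drone's role is to mate. In the annotation used here, 3 of the 36 genes carry a symbol that names a protein. *Obp3* encodes an odorant-binding protein, a class of small secreted proteins that carry odorants and other hydrophobic molecules. In *Drosophila*, *Calpb* encodes calpain B, a calcium-activated protease, and *Tg* encodes transglutaminase, an enzyme that cross-links proteins. The remaining 33 genes appear there as locus numbers without a product, so they are named by number only and no role is stated for them.

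Sequencing depth was between 21203822 and 44373783 estimated counts in queens, between 11287495 and 40453911 in drones and between 7685185 and 12432182 in workers, so that 3 counts, used below as the floor for folds, equalled between 0.0676 and 0.390 CPM, estimated counts scaled to a fixed total per library. The sign of the deposited coordinates divided the targets sharply. The 14383 targets with a minus sign held only between 2.69% and 4.06% of the counts of a library, and the median of their highest TPM was 0.314, against 11.1 for the 13998 plus-signed targets. Ribosomal protein genes followed the same division: *Rps14* ranged from 973 to 1523 TPM over the 6 libraries and has a plus sign, whereas *RpL32* ranged from 0 to 0.625 TPM and has a minus sign. Levels of minus-signed targets were therefore not read as levels of their genes, and what produced the division was not tested. Of the 42 queen-high targets, 41 have a plus sign, and genes of the minus strand could scarcely enter the set.

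**Figure D1:**
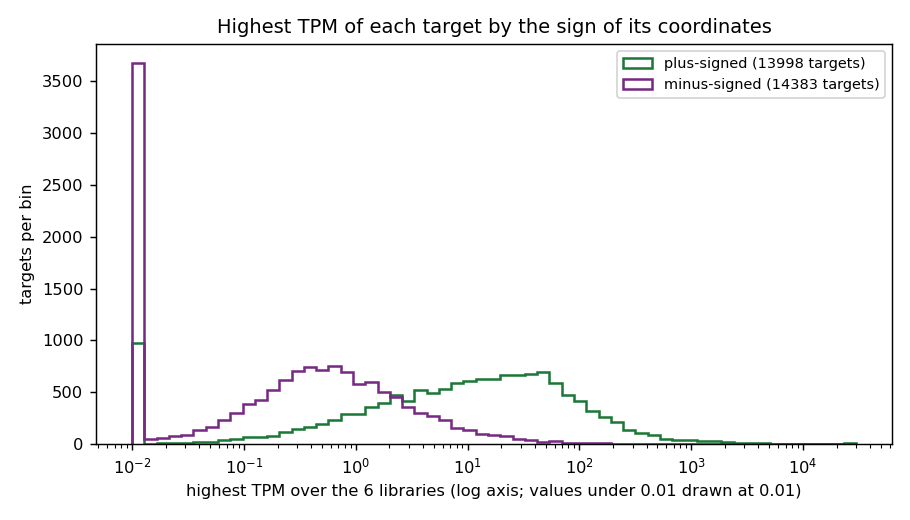
Histogram of the highest TPM of each target over the 6 libraries (x axis, log scale) against the number of targets per bin (y axis), for plus-signed and minus-signed targets. The minus-signed targets lie to the left of the plus-signed ones, with medians of 0.314 and 11.1 TPM, so the queen-high set is almost entirely drawn from 1 strand.

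Markers of other tissues also differed between the phenotypes. The 4 plus-signed troponin genes of muscle summed to between 1574 and 1606 TPM in queens, between 131 and 144 TPM in drones and between 236 and 289 TPM in workers, and all 4 were higher in both queen libraries than in any other. *Antp* and *Ubx*, which specify thoracic and abdominal segments, summed to between 6.42 and 7.07 TPM in queens, between 1.56 and 1.68 TPM in drones and between 1.52 and 1.87 TPM in workers. The hypopharyngeal gland, photoreceptor and haemocyte lists did not follow the queen-high pattern. According to the study's methods, workers' hypopharyngeal glands were carefully and completely dissected away, and the optic lobes of every brain were taken off. The 9 *Mrjp* genes of the hypopharyngeal gland summed to at most 31.5 TPM in queens, at most 33.2 TPM in drones and at least 23608 TPM in workers. The 2 plus-signed opsins of photoreceptors were lower in queens (577 to 617 TPM) than in drones (1898 to 2089 TPM) and workers (4389 to 4534 TPM). *PPO*, the haemocyte marker, was at 24.8 to 25.6 TPM in queens, 11.8 to 11.9 TPM in drones and 40.0 to 43.5 TPM in workers, and *Tsf1*, the only plus-signed fat body marker, overlapped between queens and workers. The other fat body genes listed, *Vg* among them, are minus-signed and were not read. The list therefore does not show whether fat body followed the queen-high pattern. The part that muscle or other tissue in the dissected pools plays in the queen-high values was not tested, and in bulk tissue fewer cells of a type and less RNA per cell cannot be told apart. The brain label was checked with *brp*, a protein of presynaptic active zones, at 281 and 273 TPM in queens, 121 and 104 TPM in drones and 164 and 199 TPM in workers, and with the glial genes *GlnS* and *Gat-a*, which summed to between 5695 and 5877 TPM in queens, between 2822 and 2937 TPM in drones and between 4682 and 4899 TPM in workers. Each of *brp*, *GlnS* and *Gat-a* was thus also higher in both queen libraries than in any other, by less than the troponins. The other neuron and glia genes matched, *Syt1*, *Syx1A*, *Eaat-2* and *Gat-1B*, are minus-signed, and their levels were not read.

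Together the 42 targets took 1.24% and 1.19% of all TPM in the queen libraries, 0.0652% and 0.0640% in the drone libraries and 0.0873% and 0.0933% in the worker libraries. Their lower queen value ranged from 10.02 to 2012 TPM with a median of 104 TPM, and 22 of the 42 held at least 100 TPM. The ratio of the lower queen value to the highest other value had a median of 6.96 and reached 113. Counting *Calpb*, which had no counts in drones or workers, 15 targets had a ratio of at least 10 and 9 of at least 20. The queen libraries lay close together for most members, within a factor of 1.2 for 30 targets. They were more than 1.5 times apart for 6 targets, namely 2 of *Obp3*, 1 each of *LOC725017*, *LOC408309* and *LOC725489*, and *Calpb*, for which they differed 2.28-fold.

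**Figure D2:**
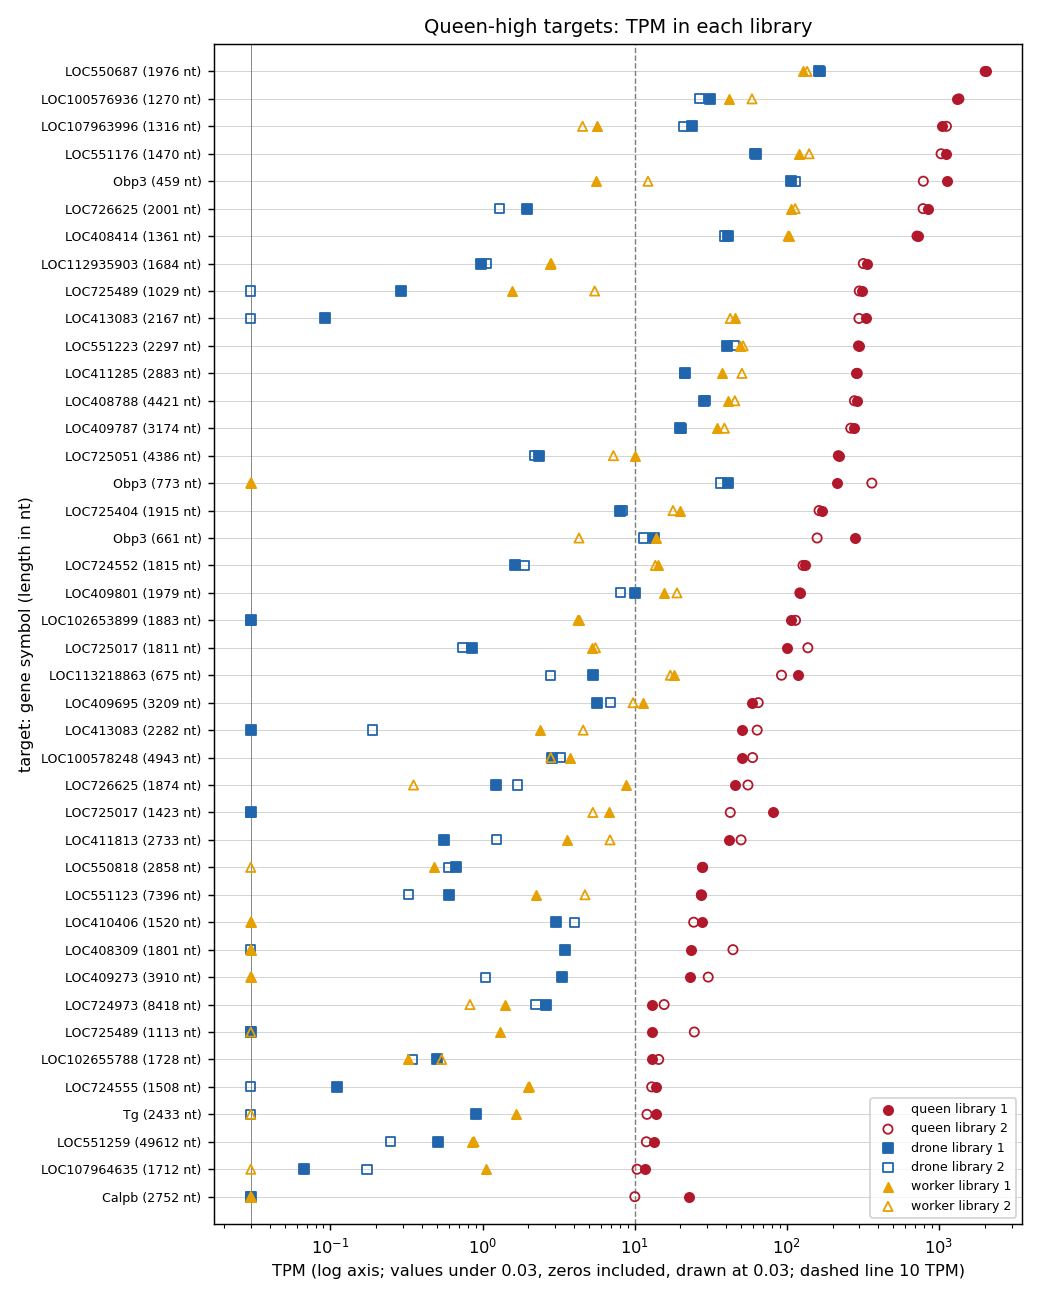
TPM of each of the 42 queen-high targets (rows, named by gene and transcript length) in the 2 queen, 2 drone and 2 worker libraries (log axis, values under 0.03 drawn at 0.03). Queen values run from 10.02 to 2028 TPM, and drone and worker values lie at least 5 times lower in every row, with drones to the left of workers in most rows.

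Both thresholds cut through a continuum. *LOC107964635* (10.4 TPM in its lower queen library) and *LOC551259* (11.9 TPM) were just inside the minimum of 10 TPM, and *LOC408653* (8.44 TPM), *LOC102654534* (7.89 TPM) and *LOC724275* (7.69 TPM) were just outside it. Just inside the ratio of 5 were *LOC724973* (5.02), *LOC113218863* (5.09) and 1 target of *Obp3* (5.18), and just outside it were *LOC551369* (4.96), *LOC412829* (4.81) and *LOC100578448* (4.63).

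The 4 most abundant members by their lower queen value, *LOC550687*, *LOC100576936*, *LOC107963996* and *LOC551176*, came from genes with a single target, so their levels do not rest on how reads were divided between isoforms. That of *LOC551176* rested in part on reads divided with other targets, since its estimated counts were not whole numbers (871.17 in worker library 2). *LOC550687* (chromosome 7, 3498317 to 3504792, 8 exons) had 2028 and 2012 TPM in queens, 163 and 165 TPM in drones and 128 and 136 TPM in workers. *LOC100576936* (chromosome 8, 11237783 to 11239296, 2 exons) had 1317 and 1352 TPM in queens, 31.3 and 26.6 TPM in drones and 41.9 and 59.0 TPM in workers. *LOC107963996* (chromosome 16, 4767669 to 4768984, a single exon) had 1055 and 1119 TPM in queens, 23.6 and 21.0 TPM in drones and 5.63 and 4.55 TPM in workers. Queen replicates were close in these genes, and the ratios of the lower queen to the highest other value were 12.2, 22.3 and 44.6. *LOC408414* (chromosome 13, 4498926 to 4504785) had a smaller ratio of 6.89, with 725 and 717 TPM in queens, 41.1 and 38.8 TPM in drones and 104 and 102 TPM in workers. A further group of single-target genes held between 263 and 299 TPM in queens: *LOC551223* (40.7 and 45.3 TPM in drones, 49.0 and 51.6 TPM in workers), *LOC408788* (28.6 and 29.2 TPM in drones, 40.9 and 45.5 TPM in workers) and *LOC409787* (19.8 and 20.4 TPM in drones, 34.8 and 38.9 TPM in workers). *LOC411285*, with 4 targets of which 1 held at least 95.2% of the gene's counts in every library, was at 287 and 290 TPM in queens, 21.3 and 21.1 TPM in drones and 37.5 and 50.7 TPM in workers. In these genes drones and workers retained clear expression. *LOC409801* was at 122 and 122 TPM in queens, 10.05 and 8.07 TPM in drones and 15.6 and 18.97 TPM in workers, and *LOC113218863* at 119 and 92.3 TPM in queens, 5.30 and 2.81 TPM in drones and 18.1 and 17.2 TPM in workers. Estimated counts of the single-target genes *LOC409787* and *LOC113218863* were not whole numbers (823.31 and 72.69 in worker library 1), so their reads were also divided with other targets.

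Several members with fewer transcripts in queens were at most at a few TPM in drones. *LOC724552* (chromosome 16, 2466367 to 2479648) had 132 and 128 TPM in queens, 1.64 and 1.88 TPM in drones and 14.3 and 13.7 TPM in workers. *LOC725051* (chromosome 11, 15078747 to 15085466, 16 exons) had 220 and 218 TPM in queens, 2.34 and 2.20 TPM in drones and 10.1 and 7.25 TPM in workers. *LOC102655788* (chromosome 5, 2358563 to 2360577) was scarce but had a ratio of 24.1, with 12.97 and 14.4 TPM in queens, 0.499 and 0.345 TPM in drones and 0.325 and 0.539 TPM in workers. Its drone and worker values overlapped, unlike those of *LOC724552* and *LOC725051*, in which drone values were below worker values in all 4 libraries. *LOC724555* (chromosome 2, 15181150 to 15182820) had 13.8 and 12.9 TPM in queens, 0.111 and 0 TPM in drones and 1.99 and 2.03 TPM in workers. *LOC100578248* (chromosome 4), the only minus-signed member, was at 50.7 and 59.5 TPM in queens, 2.88 and 3.25 TPM in drones and 3.75 and 2.81 TPM in workers, and for the reason given above these values are not read as the level of that gene.

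Some queen-high genes lay side by side. On chromosome 13, *LOC112935903*, *LOC102653899* and *LOC413083* follow each other between 10547007 and 10560215 with 1153 and 2120 bases between them, all on the plus strand. *LOC112935903* had the largest ratio among the members with counts outside queens (113), with 336 and 318 TPM in queens, 0.979 and 1.07 TPM in drones and 2.79 and 2.82 TPM in workers. *LOC102653899* had 106 and 114 TPM in queens, no counts in either drone library, and 4.28 and 4.25 TPM in workers. Summed over its 3 targets, *LOC413083* had 388 and 378 TPM in queens, 0.0926 and 0.190 TPM in drones, from 5 and 3 counts, and 48.9 and 47.04 TPM in workers. The order queen, worker, drone was thus shared by the 3 genes, without overlap between phenotypes. The pattern did not reach the gene on the left, *LOC724946*, at 0.654 and 0.445 TPM in queens, 3.57 and 3.88 TPM in drones and 1.08 and 1.17 TPM in workers. *LOC551845* on the right was higher in queens than elsewhere at a low level, with 9.36 and 7.76 TPM in queens, 1.16 and 0.249 TPM in drones and 2.12 and 1.15 TPM in workers. *LOC112935903* and *LOC102653899* have 1 target each, yet their estimated counts were not whole numbers (33.31 and 57.82 in worker library 1). The sum over the 3 targets of *LOC413083*, 772.9 there, was not whole either. Reads were therefore divided with other targets, and the 3 genes are not read as 3 separate measurements. Which targets shared reads was not examined.

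On chromosome 5, *LOC551176* (13145200 to 13148497) and *LOC725404* (13151354 to 13154408) are 2856 bases apart. *LOC551176* had 1109 and 1032 TPM in queens, 62.4 and 61.5 TPM in drones and 120 and 140 TPM in workers, and *LOC725404* had 170 and 163 TPM in queens, 7.999 and 8.33 TPM in drones and 19.7 and 17.9 TPM in workers. Their neighbour *LOC551369*, 1902 bases from *LOC551176*, narrowly missed the ratio, with 905 and 875 TPM in queens, 90.2 and 98.2 TPM in drones and 149 and 176 TPM in workers. *LOC551176* and *LOC725404* have 1 target each, yet their estimated counts were not whole numbers (871.17 and 148.18 in worker library 2). Reads were therefore divided with other targets, and which ones was not examined. On chromosome 6, *LOC725017* (3658724 to 3664761) is followed after 84 bases by *LOC107964635* (3664846 to 3667362), the only long non-coding RNA of the set. Both targets of *LOC725017* were members, and the gene summed to 182 and 180 TPM in queens, 0.857 and 0.736 TPM in drones and 12.02 and 10.8 TPM in workers. *LOC107964635* had 11.6 and 10.4 TPM in queens, 0.0672 and 0.174 TPM in drones and 1.06 and 0 TPM in workers. It has 1 target, yet its estimated counts were not whole numbers (433.95 in queen library 1). The sum over both targets of *LOC725017*, 3195.9 in queen library 2, was not whole either. Reads were therefore divided with other targets here too, and this pair is not read as separate measurements. The gene before them, *LOC113218830*, also had its highest values in queens, at 5.46 and 5.78 TPM, against at most 0.797 TPM in drones and 0.455 TPM in workers. In all, 7 of the 36 member genes had another member gene within 20000 bases. Of the 73 other plus-signed genes within that distance of a member and with at least 1 TPM in both queen libraries, 43 (58.9%) had both queen libraries above all others, beside 41.7% of 5074 such genes in the genome. No test was made of this difference.

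**Figure D3:**
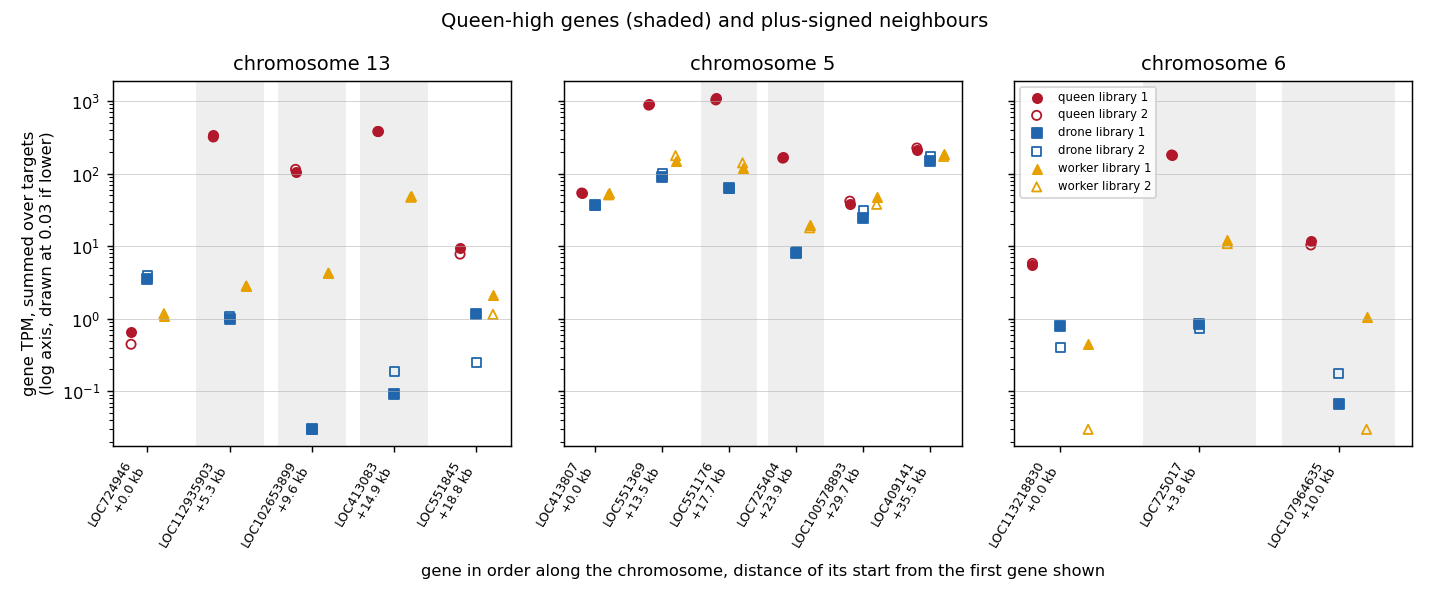
Gene TPM summed over targets (y axis, log scale, values under 0.03 drawn at 0.03) in the queen, drone and worker libraries for genes in chromosomal order around the member genes (shaded) on chromosomes 13, 5 and 6. The 3 adjacent member genes on chromosome 13 each have both queen libraries above 100 TPM, while the genes on either side stay under 10 TPM in every library.

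*Obp3* (chromosome 9, 11979053 to 11981270) was the only odorant-binding protein gene in the set, through 3 of its 4 targets. Summed over the 4, it had 1759 and 1492 TPM in queens, 214 and 225 TPM in drones and 19.4 and 23.9 TPM in workers, so that drones were intermediate. The target of 459 nt, with 5 exons, had 1131 and 789 TPM in queens, 107 and 114 TPM in drones and 5.53 and 12.2 TPM in workers. The target of 773 nt had 214 and 362 TPM in queens, 41.2 and 36.5 TPM in drones and no counts in workers, and the target of 661 nt had 281 and 158 TPM in queens, 13.5 and 11.5 TPM in drones and 13.9 and 4.31 TPM in workers. The queen replicates were close at the level of the gene but further apart for the single targets, in opposite directions. Nearby odorant-binding protein genes had other patterns. *Obp2*, 3662 bases away, was at 1.04 and 1.85 TPM in queens, 0.286 and 0 TPM in drones and 86.3 and 89.3 TPM in workers, and *Obp4*, 294 bases away, was at 36.4 and 40.5 TPM in queens, 51.2 and 50.9 TPM in drones and 46.9 and 38.5 TPM in workers. Of the 15 plus-signed odorant-binding protein genes, 1 (*Obp3*) had both queen libraries above all others and 6 had both below all others.

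*LOC726625* (chromosome 8, 12109954 to 12127894) had intermediate values in workers and low ones in drones. Its main target of 2001 nt had 852 and 786 TPM in queens, 1.97 and 1.29 TPM in drones and 106 and 113 TPM in workers. A second target of 1874 nt had 45.8 and 55.5 TPM in queens, 1.23 and 1.70 TPM in drones and 8.73 and 0.352 TPM in workers. *LOC725489* (chromosome 1, 13091754 to 13141406) combined a difference in level with a difference in isoform. Its target of 1029 nt had 311 and 299 TPM in queens, 0.293 and under 0.01 TPM in drones and 1.57 and 5.46 TPM in workers, and took 85.1% and 82.9% of the gene's counts in queens, against at most 4.94% in drones and 13.9% in workers. In drones and workers, most of the gene's counts fell on a target of 1212 nt, at 26.1 and 20.4 TPM in queens, 3.85 and 5.60 TPM in drones and 21.3 and 21.8 TPM in workers. On that transcript queen and worker values overlapped, while the gene as a whole had a ratio of 10.4.

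The isoform question was examined for every member. Of the 36 genes, 17 have a single target and 19 have several, and when TPM was summed over all targets of a gene, 25 of the 36 kept the ratio of 5. The other 11 genes did not meet the ratio as a whole, and their queen-high target held between 2.51% (*LOC408309*) and 69.3% (*LOC410406*) of the gene's counts in queens, as means of 2 libraries. Since these targets met the ratio and their genes did not, a higher share in queens follows in large part from the choice and is given as a description. *LOC550818* went furthest: its queen-high target had 27.7 and 28.0 TPM in queens, 0.672 and 0.5998 TPM in drones and 0.478 and 0 TPM in workers, but the gene had 123 and 115 TPM in queens, 485 and 455 TPM in drones and 323 and 370 TPM in workers. *LOC551259*, a gene with 30 targets, had a queen-high target of 80 exons and 49612 nt at 13.5 and 11.9 TPM in queens, 0.510 and 0.249 TPM in drones and 0.855 and 0.879 TPM in workers. It held 18.2% ± 0.366 of the gene's counts in queens, 0.636% ± 0.301 in drones and 2.40% ± 0.0676 in workers (SD, n = 2 each), while the gene totals were 62.5 and 57.3 TPM in queens, 66.8 and 65.3 TPM in drones and 31.9 and 34.4 TPM in workers. The members of *LOC409273*, *LOC408309*, *LOC724973* and *Calpb* belong to genes with a ratio between 0.983 and 1.05, that is, with nearly equal gene totals in queens and in the highest other library.

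*Calpb* (chromosome 2, 4719226 to 4731784) is an example with a named product. Its queen-high target, 1 of 10, had 22.9 and 10.02 TPM in queens and no counts in drones or workers, a difference of at least 40.8-fold with the floor of 3 counts per library. The gene as a whole had 216 and 214 TPM in queens, 188 and 189 TPM in drones and 202 and 216 TPM in workers. *Tg* (chromosome 5, 13519267 to 13531278) had a queen-high target at 13.8 and 12.04 TPM in queens, 0.909 and 0 TPM in drones and 1.66 and 0 TPM in workers, and a gene total of 43.9 and 45.9 TPM in queens, 15.6 and 13.8 TPM in drones and 9.35 and 13.0003 TPM in workers. The *Tg* target was at 0 in 1 library of each pair, from 55.6 and 0 counts in drones and 29.6 and 0 counts in workers, and the gene's ratio was 2.83. *LOC410406* lost the ratio only narrowly (4.31), with gene totals of 48.5 and 41.2 TPM in queens, 7.15 and 9.57 TPM in drones and 0.152 and 0.995 TPM in workers. Its queen-high target had 27.6 and 24.4 TPM in queens, 3.02 and 4.05 TPM in drones and no counts in workers.

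The queen-high targets of the larger multi-target genes were small parts of them. That of *LOC551123*, 1 of 25, had 27.3 and 27.4 TPM in queens, 0.604 and 0.325 TPM in drones and 2.24 and 4.71 TPM in workers, within gene totals of 591 and 574 TPM in queens, 228 and 210 TPM in drones and 254 and 287 TPM in workers. That of *LOC724973*, 1 of 12, had 13.1 and 15.6 TPM in queens, 2.60 and 2.24 TPM in drones and 1.404 and 0.827 TPM in workers, while the gene overlapped between queens and workers. That of *LOC409273*, 1 of 3, had 23.2 and 30.4 TPM in queens, 3.34 and 1.04 TPM in drones and no counts in workers. The member of *LOC408309* was uneven between replicates, with 23.4 and 44.2 TPM in queens, 3.47 and under 0.01 TPM in drones and no counts in workers. *LOC409695* and *LOC411813* have 2 targets each, and in both the queen-high target was the lesser one, at 58.95 and 64.9 TPM and at 41.9 and 50.01 TPM in queens, against at most 6.97 and 1.23 TPM in drones and 11.3 and 6.89 TPM in workers.

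**Figure D4:**
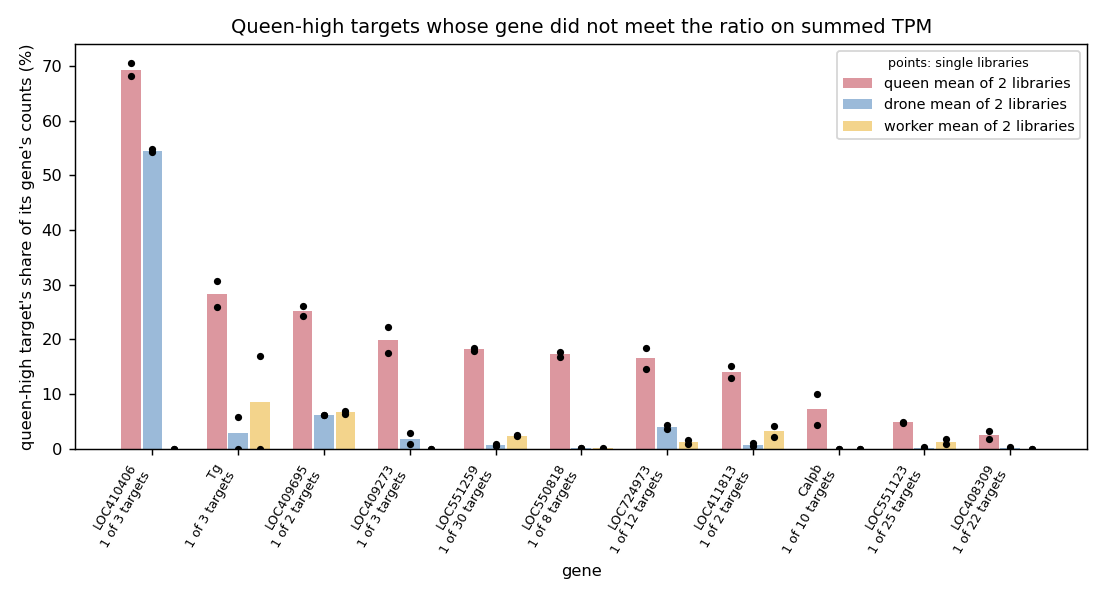
Share of the gene's estimated counts held by the queen-high target (y axis, percent) for the 11 genes that did not keep the ratio on summed TPM, as means of 2 queen, 2 drone and 2 worker libraries (bars) with the single libraries (points). In *LOC551259* the share is 18.2% in queens, 0.636% in drones and 2.40% in workers, and in each of the 11 genes the mean share is highest in queens. This order follows in large part from the choice, since each target met the ratio and its gene did not.

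Drones and workers were then compared with each other, a contrast in which the rule does not set a direction, since it used drones and workers only through their highest value. Of 17056 targets tested with edgeR's quasi-likelihood test, 10.9% had a Benjamini-Hochberg adjusted p below 0.05 (5.59% higher and 5.34% lower in drones), and among the plus-signed targets of that fit the share was 14.8% (7.57% higher and 7.27% lower). Of the 42 queen-high targets, 41 passed the filter on low counts (*Calpb* did not), and 23 of them were called, 7 higher and 16 lower in drones. The filter also counted the queen libraries, which had chosen the members: 12 of the 41 passed it only through them, and 7 of these 12 were called (3 higher and 4 lower in drones, namely the 773 nt target of *Obp3*, *LOC410406* and *LOC409273*, and *LOC102653899*, *LOC724555*, the 2282 nt target of *LOC413083* and the 1423 nt target of *LOC725017*). In a fit of the drone and worker libraries alone, with the same filter on those 4, 7.17% of 13730 targets were called (3.84% higher and 3.34% lower in drones), and 7 of the 29 members tested, 3 higher (*LOC550687*, *LOC107963996* and the 459 nt target of *Obp3*) and 4 lower (the 2001 nt target of *LOC726625*, *LOC408414*, *LOC724552* and the 2167 nt target of *LOC413083*). The median log2 fold change in drones relative to workers over those 29 members was -0.77 in that fit, beside -0.0065 over its 13730 targets, with 21 members negative and 8 positive. On TPM, the 2 drone values were below both worker values for 25 of the 42 members and above them for 8, beside 38.2% and 19.0% of all targets tested. Those shares cover minus-signed targets too and were not computed for the 11629 plus-signed targets alone. The 42 members include *Calpb* and the 12 that passed the filter only through queen libraries. TPM itself runs lower in drones: over 9390 targets with at least 1 TPM in all drone and worker libraries, the median log2 ratio of drone to worker TPM was -0.30, and -0.02 in the edgeR fit with its TMM scaling. The 17 plus-signed genes of the cuticle list summed to between 15163 and 15283 TPM in queens, between 234870 and 243909 TPM in drones and between 55167 and 55280 TPM in workers. *CPF2* alone was at 195420 and 203711 TPM in drones. Of the 17 genes, 4 had both queen libraries above all others and 8 had both below all others. With limma on log2(TPM + 1), the share of higher calls among all calls was 27.0%, against 51.2% in edgeR, and the members divided into 5 higher and 23 lower.

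Of the members lower in drones, *LOC726625* (2001 nt) fell most among those with more than 3 counts in every drone and worker library, with a log2 fold change of -5.66 ± 0.20 (SE, adjusted p = 0.000516, edgeR). *LOC724552* fell by 2.72 ± 0.12 on the log2 scale (adjusted p = 0.000882, edgeR), the 1811 nt target of *LOC725017* by 2.42 ± 0.22 (adjusted p = 0.00485), *LOC725051* by 1.63 ± 0.17 (adjusted p = 0.00763) and *LOC408414* by 1.09 ± 0.08 (adjusted p = 0.00249). Of the 3 neighbours on chromosome 13, *LOC112935903* fell by 1.16 ± 0.12 on the log2 scale (adjusted p = 0.00663, edgeR). The 2167 nt target of *LOC413083* (adjusted p = 0.000666, edgeR) held 5 and 0 counts in drones and 721 and 402 counts in workers. *LOC102653899* held no counts in drones and 57.8 and 34.6 in workers. It passed the filter only through queen libraries, so its call is not used. Since reads were divided with other targets, these are not 3 separate measurements. Both neighbours on chromosome 5 were likewise lower, *LOC551176* by 0.79 ± 0.11 (adjusted p = 0.0163, edgeR) and *LOC725404* by 0.92 ± 0.10 (adjusted p = 0.00777). The remaining lower calls were *LOC411285*, *LOC409787* and *LOC551123*, and the 1423 nt target of *LOC725017*, the 2282 nt target of *LOC413083* and *LOC724555*. The last 3 passed the filter only through queen libraries, so their calls are not used.

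Of the members higher in drones, *Obp3* stood out by its size. Its 459 nt target was higher in drones by 3.85 ± 0.44 on the log2 scale (SE, adjusted p = 0.0101, edgeR). Summed over its 4 targets, the gene was higher by 3.51 ± 0.13 (SE, adjusted p = 6.52e-08, edgeR). Its 773 nt target had no counts in workers, where the 67 and 48 counts of the gene were placed on its other targets. That target also passed the filter only through queen libraries, so its call and fold are not used. *LOC107963996* was higher in drones by 2.40 ± 0.13 (adjusted p = 0.00138, edgeR) and *LOC550687* by 0.61 ± 0.06 (adjusted p = 0.00667). The called targets of *LOC410406* and *LOC409273* had no counts in workers and passed the filter only through queen libraries, so their calls and folds are not used. *LOC410406* as a gene held 203 and 74 counts in drones and 1 and 4 in workers. *LOC409273* as a gene was not called (0.20 ± 0.08 on the log2 scale, SE, adjusted p = 0.103, edgeR). The target of *LOC724973* had a log2 fold change of 1.42 ± 0.29 (adjusted p = 0.0460, edgeR). Summed over its 12 targets, *LOC724973* was called in the other direction, at -0.24 ± 0.07 (SE, adjusted p = 0.0331, edgeR), and the call of the target was lost in both limma fits. *LOC551223* was the abundant member in which drones and workers were closest, with a log2 fold change of 0.06 ± 0.07 (adjusted p = 0.645, edgeR). *LOC100576936*, lower in drones on TPM, was not called (-0.51 ± 0.20, adjusted p = 0.204, edgeR).

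With only 2 libraries per phenotype, some of these calls rested on single libraries. Of the 23 called members, 12 kept an adjusted p below 0.05 in edgeR with each of the 6 libraries left out in turn, namely *LOC726625* (2001 nt), *LOC102653899*, *LOC724552*, *LOC408414*, *LOC107963996*, *LOC550687*, *LOC410406*, the 2167 nt target of *LOC413083*, both called targets of *Obp3* and both of *LOC725017*. Without drone library 1, *LOC112935903* reached 0.0787 and *LOC551176* 0.0664, and without drone library 2, *LOC551176* reached 0.0931, *LOC725051* 0.0552 and *LOC725404* 0.0532. The other 7, *LOC411285*, *LOC409787*, the 2282 nt target of *LOC413083*, *LOC551123*, *LOC409273*, *LOC724973* and *LOC724555*, lost the call in 4 or 5 of the 6 fits, with adjusted p up to 0.171. Of the 12, *LOC102653899*, *LOC410406*, the 773 nt target of *Obp3* and the 1423 nt target of *LOC725017* passed the filter only through queen libraries. Their calls are not used, and keeping them does not show stability between drones and workers. The 1811 nt target of *LOC725017* lost its call in the fit of drone and worker libraries alone (adjusted p = 0.0674, edgeR). Outside the 12, so did *LOC112935903* (adjusted p = 0.259, edgeR), *LOC725404* (0.123), *LOC725051* (0.0674) and *LOC551176*, so their calls rested on the queen libraries in the fit. The rest of the 12 were the 7 members called in that fit.

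Counts summed per gene avoid the division of reads between isoforms, though not between genes. At that level, 28.4% of 9726 genes were called between drones and workers by edgeR (13.3% higher and 15.1% lower in drones). Of the 25 genes that kept the queen ratio, 18 were called lower in drones, 3 higher (*Obp3*, *LOC107963996* and *LOC550687*) and 4 were not called (*LOC551223*, *LOC102655788*, *LOC107964635* and *LOC100578248*). Of these 25, 4 genes passed the filter only through queen libraries, and 2 of them were called lower (*LOC102653899* and *LOC724555*). *LOC725489*, not called by target, was lower in drones as a gene, with a log2 fold change of -2.37 ± 0.13 (SE, adjusted p = 9.82e-07, edgeR), and *LOC100576936* was called with -0.54 ± 0.16 (adjusted p = 0.0301). Of the isoform cases, *LOC551259* and *LOC550818* were called higher in drones as genes (0.98 ± 0.09 and 0.61 ± 0.09 on the log2 scale, adjusted p = 2.16e-05 and 0.000556, edgeR), although the queen-high target of neither was called.

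**Figure D5:**
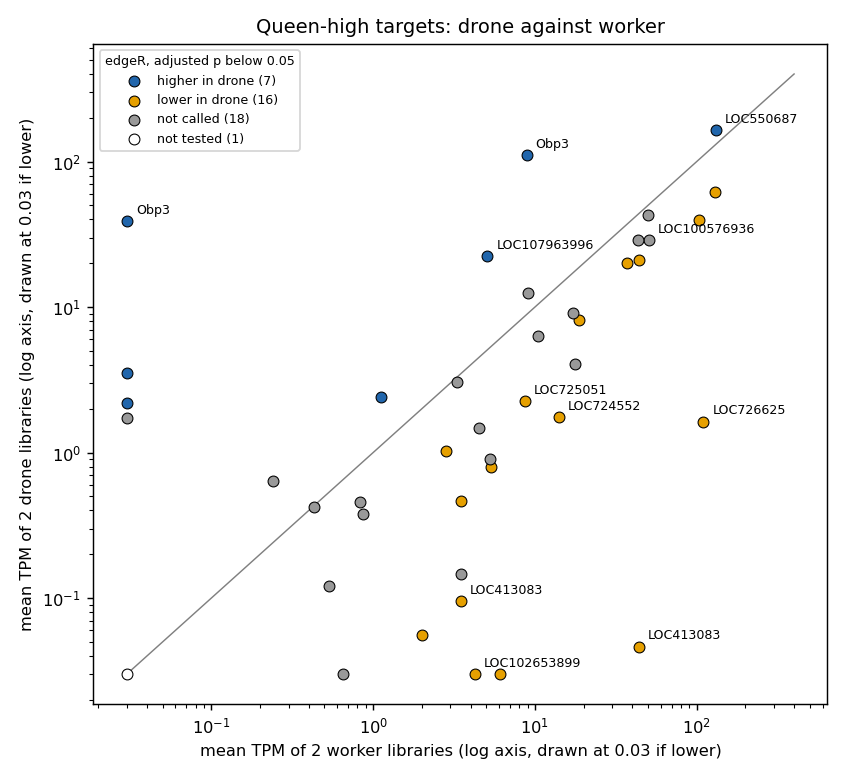
Mean TPM of the 2 drone libraries (y axis) against that of the 2 worker libraries (x axis) for the 42 queen-high targets, both on log axes with values under 0.03 drawn at 0.03, and the line of equality. Colours give the edgeR call, with 7 targets higher in drones, 16 lower, 18 not called and 1 not tested. *Obp3* and *LOC107963996* lie far above the line, and *LOC726625* and *LOC413083* far below it.

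In structure the queen-high targets resembled other abundant transcripts. Their median length was 1899 nt and their median number of exons 6, beside 2291 nt and 7 exons for 5922 other plus-signed targets with at least 10 TPM in both queen libraries. The share annotated as protein coding was 97.6% in both. For 40.5% of members, beside 33.2% of the others, the target was the only one of its gene. The 36 genes lay on 12 chromosomes, with 5 each on chromosomes 7 and 13 and 4 each on chromosomes 5, 6 and 8.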

How the data were processed

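RNA-seq libraries of newly-eclosed queen, drone and worker central brains (2 pools each) were made from poly(A) RNA with a strand-marking kit. According to the study's methods, reads were assigned with Kallisto to the EnsemblMetazoa transcripts of Amel_HAv3.1, with the strand of the reads set. The version is not given in the sources used here. The authors deposited estimated counts, which are not normalised, and TPM values, which their software scaled to transcript length and to a fixed total per library. A deposited coordinate table lists exon positions with a sign for 28381 of 28409 targets, and exon lengths added up to the listed length for all 28381.

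Targets were paired by coordinates with the RefSeq genes of the same assembly. This placed 28343 targets on 12354 genes, and 98.08% of these were spanned exactly by their targets. The 66 targets without a gene, with between 5.57% and 7.87% of the counts of a library, entered neither the library sizes nor the fit. Since minus-signed targets held few counts, TPM values compare mainly plus-strand genes. Nothing was done to correct this.

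Drones and workers were compared on estimated counts rounded to whole numbers, with edgeR 4.0.16 in R 4.3.3. A target was kept if 3 or more of the 6 libraries held 5 or more counts. The fit used TMM scaling (factors between 0.911 and 1.08), all 6 libraries and phenotype as the only factor, with quasi-likelihood F tests, and p-values of all targets tested were adjusted after Benjamini and Hochberg, with a threshold of 0.05. The residual degrees of freedom were 3. Each standard error is the size of the fold change over the square root of F. TPM under 0.01 was read as 0 where libraries were ordered. Alternatives were other scalings, DESeq2 1.42.0, limma 3.58.1 on log2(TPM + 1) and log2(TPM + 0.1), other filters, counts summed per gene, thinning, the replicate number as a block, a fit without queens, and leave-one-out fits. A fit of plus-signed targets alone was added after seeing the data. Values per library are given for members with a named product, the 10 most abundant in queens, the 10 with the largest ratio and those called. The members, marker lists and tests were chosen with earlier results of these data known. The paper's chromatin experiments and all sequences were not used here. Tables and figures were made with pandas 2.3.3 and matplotlib 3.10.9.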

Additional observations from a re-analysis of the deposited data

How the results depend on the processing

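The rule gave 42 targets, and 89 with a ratio of 3, 15 with a ratio of 10, 69 on group means and 26 genes on TPM summed per gene. TPM rescaled by TMM factors gave 38, and leaving out 1 library gave between 45 and 61. Between drones and workers, 1863 targets were called in the edgeR fit, 4255 with DESeq2, 3142 and 3078 with limma on log2(TPM + 1) and log2(TPM + 0.1), 985 with only drone and worker libraries, and between 680 (without drone replicate 2) and 1580 with 1 library left out. Of the members, 23 were called, 33 with DESeq2, 28 and 29 with limma, 7 of 29 tested (3 higher, 4 lower) with only drone and worker libraries, and between 15 (without drone replicate 2) and 23 with 1 library left out. The causes of these shifts were not tested. All 23 called members kept their direction in every alternative that gave a value, except *LOC724973*, which as a gene was at -0.24 on the log2 scale and called lower (adjusted p = 0.0331, edgeR). Replicate numbers did not pair the libraries (correlations of same-numbered deviations were -0.018, -0.015 and -0.039), and with the replicate block 854 targets and 16 members were called. Members that were not called reversed as follows. With limma on log2(TPM + 1) and log2(TPM + 0.1), *LOC551223* gave -0.22 and -0.23, *LOC100578248* -0.067 and -0.084, and *LOC102655788* -0.0081 and -0.013. As genes, *LOC408309* gave -0.17, *Tg* 0.63 and *LOC551259* 0.98. With 1 library left out, the 1874 nt target of *LOC726625* ranged from -2.28 to 2.23, *LOC102655788* from -0.038 to 0.71 and *Tg* from -7.52 to 7.36. Depth limits the members with few counts, and a value of 0 in the smallest worker library allows up to 0.390 CPM.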
